A study of Mus musculus with 6 samples.

Results

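Repair genes of 4 routes, namely base excision, nucleotide excision, mismatch repair and end joining, were followed in haematopoietic stem cells (HSCs) of old and young mice, together with Mgmt, which reverses alkylation damage directly. The members were 41 genes named by symbol, and each symbol was matched to a row of the deposited count table through its Ensembl identifier. All 41 were found among the 16312 genes of the table, 14 in base excision, 11 in nucleotide excision, 5 in mismatch repair, 10 in end joining and 1 in direct reversal. The cells came from marrow of male B6 mice and had been isolated with a cell sorter. The old group held 3 biological replicates aged 22 months, and the young group 3 aged 8 to 12 weeks. Both groups were labelled as controls of a parabiosis study, the surgical joining of animals, and the series title names the strain C57BL/6N. The sources used here do not give the surface markers of the sort, the number of cells or whether a library held 1 mouse.

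Each of these routes removes a different kind of DNA damage. In base excision a glycosylase cuts out an altered base, an endonuclease opens the strand, and a polymerase and a ligase close the gap. Nucleotide excision cuts out a stretch of strand around a bulky lesion, found either by a sensor of distorted DNA or by a stalled RNA polymerase. Mismatch repair corrects errors left behind by replication, and end joining ligates broken chromosomes without a template. Resting HSCs are known to rely on end joining, because recombination with a sister chromatid is open only to cells that have copied their DNA.

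Total counts ran from 12494557 to 23583985 in old libraries and from 21386745 to 30931680 in young libraries, and levels are given as CPM, counts scaled to library size with TMM factors. All 12 listed HSC markers had counts in every library, with a summed level of 3864 to 4269 CPM in old and 3573 to 4198 CPM in young libraries. Of 22 proliferation genes 15 fell in old HSCs and none rose, and their summed level was 2142 to 2797 CPM in old and 4234 to 4959 CPM in young libraries. Of 13 tested macrophage markers 8 fell and none rose (summed level 198 to 225 CPM in old and 212 to 251 CPM in young libraries), and Fcna, Cd5l, Adgre1 and C1qb had no count in any old library. Most of that sum was Lyz2, which averaged 182 ± 14.8 CPM in old and 145 ± 25.3 CPM in young HSCs, and the other 13 macrophage genes summed to 25.4 to 27.7 CPM in old and 77.5 to 94.1 CPM in young libraries. Of 9 tested erythroid markers 3 fell and none rose, with 135 to 160 CPM in old and 191 to 459 CPM in young libraries, and of 6 tested neutrophil markers 4 fell and 1 rose, with 75.2 to 103 CPM in old and 45.9 to 265 CPM in young libraries. The 1 that rose, Prtn3, carried most of the old sum at 85.5 ± 13.8 CPM in old and 27.1 ± 2.09 CPM in young HSCs, and the other 9 neutrophil genes summed to 5.69 to 8.43 CPM in old and 16.7 to 238 CPM in young libraries. The young library with the highest erythroid and neutrophil sums was replicate 1. None of the 2 tested lymphoid cell markers passed (0 at an unadjusted p under 0.05, 0 with DESeq2), and their list summed to 3.34 to 9.31 CPM in old and 6.24 to 8.62 CPM in young libraries. The title and the description of young replicate 2 carry different library numbers, and its column was taken by the title. The part of these markers in the values below was not tested.

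Few of the repair genes passed the test between old and young HSCs. Among the 41 members, Polq, the polymerase of microhomology-mediated end joining, fell to 24.5 ± 6.77 CPM in old HSCs, against 48.5 ± 6.78 CPM in young HSCs (SD, n = 3 each), and no member rose. It was the 1 member, 2.44% of the list, that passed an adjusted p of 0.05, where 3.99% of the 14288 genes tested passed in either direction, 1.54% as lower and 2.45% as higher in old HSCs (edgeR's quasi-likelihood test with Benjamini-Hochberg adjustment over all genes tested). At an unadjusted p under 0.05 there were 5 members, all lower in old HSCs, namely Polq, Neil3, Parp1, Msh3 and Trp53bp1. They made up 12.2% of the list, against 16.5% of all genes tested in either direction and 7.63% on the lower side. The members' share of calls was thus near that of all genes by each of these counts.

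The direction of the differences was mostly downward. Of the 41 members 29 had a log2 fold change below 0 and 12 above it, a share of 70.7% lower, beside 51.8% of all genes tested. The median log2 fold change of the members was −0.11, beside −0.02 for all genes tested, and it was −0.22 without young replicate 2, the library with the differing label numbers. For 29 members the 95% interval of the fold change lay within 2-fold in both directions, which was true of 56.1% of all genes tested. Of the 12 members whose interval reached past 2-fold, Polq and Neil3 reached it on the lower side, with 1374 and 1236 counts in old libraries and 3855 and 3437 counts in young libraries, and the other 10 had at most 649 counts in either group. In bulk samples such as these, fewer cells of a type and less RNA per cell cannot be told apart.

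**Figure D1:**
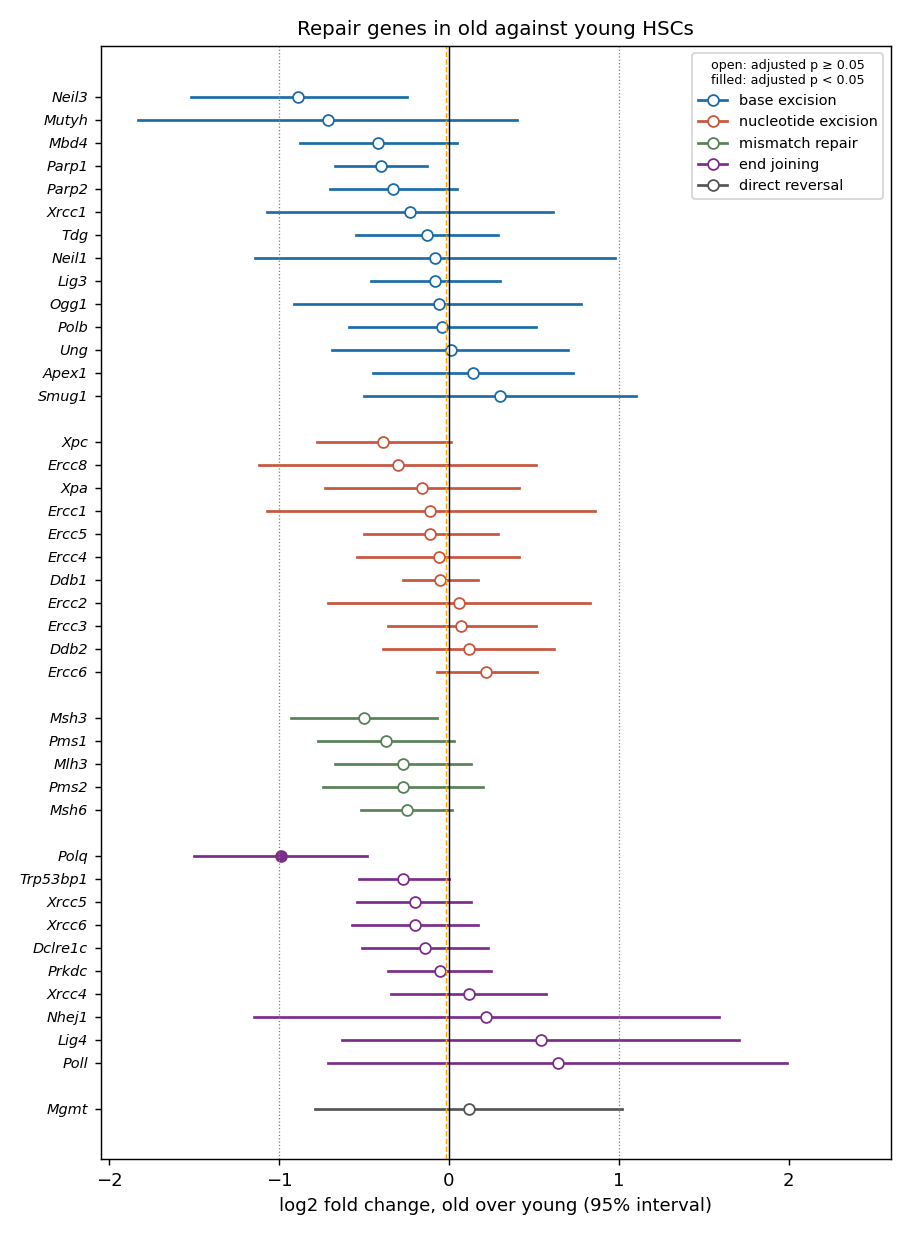
Log2 fold change of each of the 41 repair genes, old over young, with its 95% interval, grouped by route (colours). The filled point is Polq (−0.99), the member past an adjusted p of 0.05, dotted lines mark 2-fold, and the dashed line marks the median of all genes tested (−0.02).

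The promoter windows of Polq and Neil3, the members furthest below 0 in the fit, and of Msh6 and Msh3, from the route in which every member had a log2 fold change below 0, are shown with letters that occur in promoters of cell cycle genes. These 4 were chosen after their values were seen. Sequences are RefSeq windows of build GRCm38.p6 from 250 bases before to 50 bases after the annotated start, in the direction of transcription. Capitals mark matches on either strand to E2F letters (TTTCCCGC, TTTCGCGC, TTTGCCGC or TTTGGCGC), bound by the factors that switch on S phase genes, or to letters of the cell cycle homology region, CHR (TTTGAA or TTCGAA). The Polq window lies at chr16:37011536-37011835 on the plus strand, Neil3 at chr8:53639016-53639315 on the minus strand, Msh6 at chr17:87974800-87975099 on the plus strand and Msh3 at chr13:92354954-92355253 on the minus strand.
Polq: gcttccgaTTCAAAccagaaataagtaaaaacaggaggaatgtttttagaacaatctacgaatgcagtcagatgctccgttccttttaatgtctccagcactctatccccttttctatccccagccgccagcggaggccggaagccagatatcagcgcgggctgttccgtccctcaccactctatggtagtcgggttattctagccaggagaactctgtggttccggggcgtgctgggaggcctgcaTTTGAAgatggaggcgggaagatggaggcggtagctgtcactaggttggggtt
Neil3: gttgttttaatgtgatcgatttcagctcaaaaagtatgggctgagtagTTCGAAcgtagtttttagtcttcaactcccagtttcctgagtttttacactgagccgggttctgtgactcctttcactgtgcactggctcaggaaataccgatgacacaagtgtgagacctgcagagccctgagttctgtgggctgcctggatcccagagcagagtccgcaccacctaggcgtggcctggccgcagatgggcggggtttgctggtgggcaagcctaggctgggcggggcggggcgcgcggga
Msh6: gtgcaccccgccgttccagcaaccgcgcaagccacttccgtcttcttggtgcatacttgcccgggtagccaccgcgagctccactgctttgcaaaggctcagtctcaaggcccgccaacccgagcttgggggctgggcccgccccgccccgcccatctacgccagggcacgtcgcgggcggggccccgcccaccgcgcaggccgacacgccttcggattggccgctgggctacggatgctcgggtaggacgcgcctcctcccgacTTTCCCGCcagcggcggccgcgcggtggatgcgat
Msh3: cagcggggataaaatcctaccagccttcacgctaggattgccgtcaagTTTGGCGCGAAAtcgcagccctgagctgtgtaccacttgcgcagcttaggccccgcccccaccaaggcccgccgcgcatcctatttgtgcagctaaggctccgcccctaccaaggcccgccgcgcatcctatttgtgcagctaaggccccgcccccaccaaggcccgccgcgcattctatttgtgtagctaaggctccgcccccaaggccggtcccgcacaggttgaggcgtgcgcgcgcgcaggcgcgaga
In Polq a CHR match spans the annotated start, from base −3 to base 3, and another lies at −242 to −237. Neil3 holds a CHR match at −202 to −197. Msh6 holds an E2F match at 16 to 23, after the start, and Msh3 has a pair of overlapping E2F matches at −202 to −195 and −198 to −191. Windows were matched by symbol for 35 of the 41 members. Of these 35 members 3 (8.57%) had an E2F match (Msh3, Msh6 and Xrcc6) and 4 (11.4%) had a CHR match (Neil3, Apex1, Ercc5 and Polq). Counted by gene in the same way, 2.6% of the 27025 genes with such windows had an E2F match and 21.7% a CHR match. A match describes letters and does not show binding.

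None of the 14 base excision members passed the test (0 with edgeR, 2 with DESeq2, Neil3 and Parp1). Of these 2 had an unadjusted p under 0.05, both lower in old HSCs, 11 of 14 had a log2 fold change below 0, and the median was −0.11 (−0.23 without young replicate 2 and −0.21 without young replicate 3). Neil3 encodes a glycosylase of oxidised bases that also unhooks crosslinked strands. It stood at 24.7, 28.6 and 14.2 CPM in old replicates 1 to 3 and at 31.2, 36.7 and 56.3 CPM in young replicates 1 to 3. The groups did not overlap, though old replicate 2 came close to young replicate 1, and young replicate 3 was the highest library. The log2 fold change of Neil3 was −0.89 ± 0.29 SE, with a 95% interval from −1.52 to −0.25 (adjusted p = 0.133 with edgeR). DESeq2 called it (adjusted p = 0.0293), and the authors' deposited table lists 0.72 on the log2 scale, its sign being young over old, at an adjusted p of 0.0566.

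Parp1 and Parp2 encode the enzymes that sense strand breaks and mark them with ADP-ribose chains. Parp1 had 143, 115 and 117 CPM in old replicates 1 to 3, against 161, 159 and 175 CPM in young replicates 1 to 3. All old libraries lay below all young ones. The log2 fold change was −0.40 ± 0.13 SE (95% interval −0.67 to −0.13), and the adjusted p was 0.111 with edgeR and 0.0488 with DESeq2. Parp2 averaged 76.4 ± 14.3 CPM in old and 95.7 ± 13.9 CPM in young HSCs (SD, n = 3 each), with overlapping groups and an adjusted p of 0.388. Per kb of exon, Parp1 stood at 1.14 ± 0.166 times the level of Parp2 in old and 1.20 ± 0.167 times in young HSCs.

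The glycosylases of uracil and mispaired thymine showed no difference beyond the spread of the libraries. Ung, the main uracil glycosylase, averaged 12.3 ± 3.40 CPM in old and 12.2 ± 3.11 CPM in young HSCs (SD, n = 3 each). Smug1, another uracil glycosylase, averaged 9.0 ± 1.93 and 7.29 ± 2.55 CPM in old and young HSCs. Tdg and Mbd4 both remove thymine paired with guanine. Tdg averaged 26.6 ± 1.61 CPM in old and 29.2 ± 2.54 CPM in young HSCs, but its transcript shares a stretch of 2968 bases at 98.7% identity with the pseudogene Tdg-ps, so its count is uncertain. Mbd4 had 39.2, 44 and 29.6 CPM in old libraries and 63.6, 42.7 and 44.1 CPM in young libraries. Young replicate 1 stood above the rest for Mbd4, and the groups overlapped (log2 fold change −0.42 ± 0.21 SE, adjusted p = 0.378).

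Enzymes of oxidised guanine were expressed at low levels. Ogg1, which cuts out 8-oxoguanine, averaged 5.95 ± 1.63 CPM in old and 6.20 ± 1.36 CPM in young HSCs. Mutyh, which removes adenine placed opposite that lesion, had 2.87, 3.44 and 1.83 CPM in old libraries and 2.61, 4.08 and 6.57 CPM in young libraries, with overlapping groups. Its log2 fold change of −0.71 had an interval from −1.83 to 0.40, which includes a 2-fold lower level as well as no difference. Neil1, a glycosylase of oxidised pyrimidines, averaged 4.01 ± 0.842 and 4.27 ± 2.27 CPM in old and young HSCs, and the log2 interval ran from −1.14 to 0.98.

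The genes of the later steps had overlapping groups apart from Parp1. Apex1, the endonuclease that opens the strand at a missing base, had an average of 25.6 ± 6.89 CPM in old and 23.3 ± 6.45 CPM in young HSCs, although 61.7% of its exon length overlaps Pip4p1 on the opposite strand and the sources used here do not say whether counting used strand. Polb, the gap-filling polymerase, averaged 20 ± 1.87 and 20.6 ± 5.35 CPM in old and young HSCs. Xrcc1, the scaffold of the ligation step, averaged 6.30 ± 1.91 CPM in old and 7.44 ± 1.78 CPM in young HSCs. Its partner Lig3, the ligase, averaged 81.3 ± 11.5 CPM in old and 86.2 ± 17.9 CPM in young HSCs, and the 95% interval of its fold change was 0.725 to 1.23. Lig3 also overlaps another gene, Rffl, over 25.1% of its exon length.

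**Figure D2:**
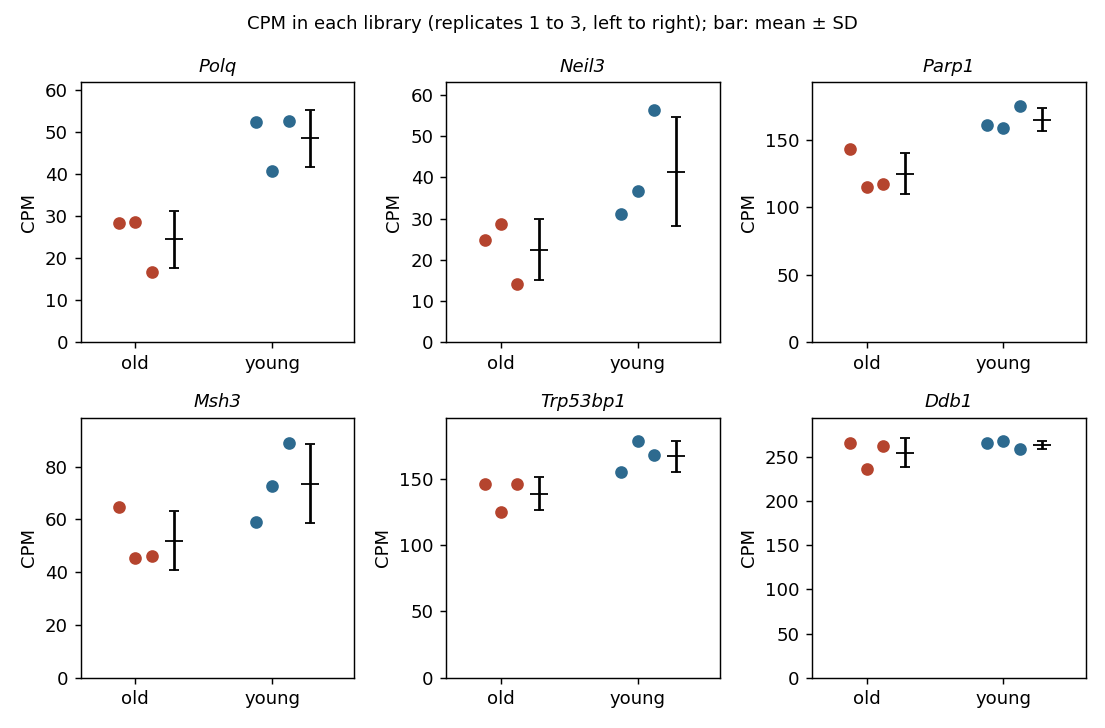
CPM of the 5 members with an unadjusted p under 0.05 and of Ddb1, the member with the highest level per kb, in each of the 3 old and 3 young libraries, with mean and SD. Polq, Neil3, Parp1 and Trp53bp1 are lower in every old library than in every young one, Msh3 overlaps, and Ddb1 lies at 237 to 266 CPM in old and 259 to 268 CPM in young libraries.

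Nucleotide excision members did not differ between the ages by the test. None of the 11 passed (0 also at an unadjusted p under 0.05, and 0 with DESeq2), 7 had a log2 fold change below 0 and 4 above it, the median was −0.06, and in no member were the groups apart. Xpc, which detects distorted DNA across the genome, had the smallest p of the route. It stood at 75.3, 52.5 and 53.1 CPM in old replicates 1 to 3, against 70.2, 92.7 and 73.7 CPM in young replicates 1 to 3. Old replicate 1 lay within the young range (log2 fold change −0.39 ± 0.18 SE, adjusted p = 0.322). The partners Ddb1 and Ddb2 find ultraviolet lesions, and Ddb1 also serves many ubiquitin ligases. Ddb1 averaged 255 ± 16.2 CPM in old and 264 ± 4.76 CPM in young HSCs, and its fold change of 0.965 had the interval 0.827 to 1.13 and the smallest SE of the list, 0.10 on the log2 scale. Ddb2 averaged 23.9 ± 4.67 CPM in old and 22.1 ± 3.51 CPM in young HSCs, and 23.8% of its exon length overlaps Acp2.

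Ercc6 and Ercc8 encode the factors CSB and CSA, which act where an RNA polymerase has stalled. Ercc6 had 100, 111 and 96.8 CPM in old replicates 1 to 3, against 97.6, 79.1 and 87.4 CPM in young replicates 1 to 3. The groups overlapped at old replicate 3 and young replicate 1. Its log2 fold change was 0.22 ± 0.13 SE with an interval from −0.07 to 0.52 (adjusted p = 0.468), the highest log2 value of the route. Ercc8 averaged 6.50 ± 2.27 CPM in old and 8.06 ± 1.11 CPM in young HSCs.

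Ercc2 and Ercc3, the helicases XPD and XPB of the transcription factor TFIIH that open the DNA around a lesion, averaged 8.99 ± 2.27 and 44.2 ± 1.62 CPM in old HSCs and 8.59 ± 2.71 and 42.1 ± 10.4 CPM in young HSCs. Xpa, which positions the nucleases, averaged 25.3 ± 2.56 and 28.2 ± 9.80 CPM in old and young HSCs. Ercc4 and Ercc1 form the nuclease XPF-ERCC1 on one side of the lesion. Ercc4 averaged 39.7 ± 6.14 CPM in old and 41.4 ± 10.3 CPM in young HSCs, whereas Ercc1 averaged 3.88 ± 1.04 CPM in old and 4.19 ± 0.908 CPM in young HSCs. Per kb of exon, Ercc4 was at 5.05 ± 2.01 times the level of Ercc1 in old and 4.57 ± 0.668 times in young HSCs (exact permutation p = 0.9, two-sided). With 20 arrangements of the libraries, the smallest p this test can give is 0.1, here and for the ratios tested below. The test could therefore not pass the threshold used for p-values, and it does not show that a ratio stayed the same. Ercc5, the nuclease XPG on the other side, averaged 34.2 ± 3.34 and 36.8 ± 3.45 CPM in old and young HSCs.

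Mismatch repair was the route in which all members had values below the young level. None of the 5 passed the test (0 with DESeq2), 1 had an unadjusted p under 0.05, and the median log2 fold change was −0.27, within a range of −0.50 to −0.25. All 5 intervals lay within 2-fold. Msh3, which recognises loops of several unpaired bases, had 64.8, 45.3 and 46.0 CPM in old replicates 1 to 3 and 58.9, 72.8 and 88.9 CPM in young replicates 1 to 3. Old replicate 1 lay above young replicate 1 (log2 fold change −0.50 ± 0.20 SE, 95% interval −0.93 to −0.07, adjusted p = 0.222). Msh6, which recognises base mismatches, had 151, 137 and 154 CPM in old libraries and 195, 174 and 155 CPM in young libraries. The groups of Msh6 touched without overlapping, old replicate 3 and young replicate 3 being almost equal (log2 fold change −0.25 ± 0.12 SE, adjusted p = 0.349). Per kb of exon Msh6 stood at 7.51 ± 1.36 times Msh3 in old and 6.44 ± 2.04 times in young HSCs (exact permutation p = 0.6, two-sided). The smallest p possible in this test was 0.1, so it could not decide whether the ratio differed.

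Mlh3, Pms1 and Pms2 are the interchangeable partners of the MutL complex that acts after a mismatch is found. Pms1 had 28.3, 25.7 and 31.9 CPM in old replicates 1 to 3, against 39, 37.0 and 35.3 CPM in young replicates 1 to 3. The groups were apart, and the log2 fold change was −0.37 ± 0.18 SE (adjusted p = 0.345). The authors' deposited table lists Pms1 at 0.63 on the log2 scale, young over old, at an adjusted p of 0.152. Mlh3 averaged 55.4 ± 12.6 CPM in old and 66.6 ± 3.48 CPM in young HSCs, and Pms2, the nuclease subunit, 29.5 ± 5.62 and 35.4 ± 6.11 CPM. Summed over the 5 genes, the level was 338, 304 and 297 CPM in old libraries and 391, 380 and 392 CPM in young libraries. The sums of the ages did not overlap here, nor for base excision (426 to 496 CPM in old, 520 to 586 CPM in young), end joining (530 to 563 CPM in old, 586 to 638 CPM in young) or all 41 members (1856 to 2036 CPM in old, 2096 to 2250 CPM in young). For nucleotide excision they overlapped, with 587 to 631 CPM in old and 602 to 639 CPM in young libraries. Abundant members weigh most in such sums. Parp1 averaged 125 CPM in old and 165 CPM in young HSCs, Msh6 147 and 175 CPM, and Trp53bp1 139 and 167 CPM. Prkdc, also abundant, averaged 174 and 181 CPM. How often the sums of other gene lists of like size do not overlap was not determined, and the sums were not tested.

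**Figure D3:**
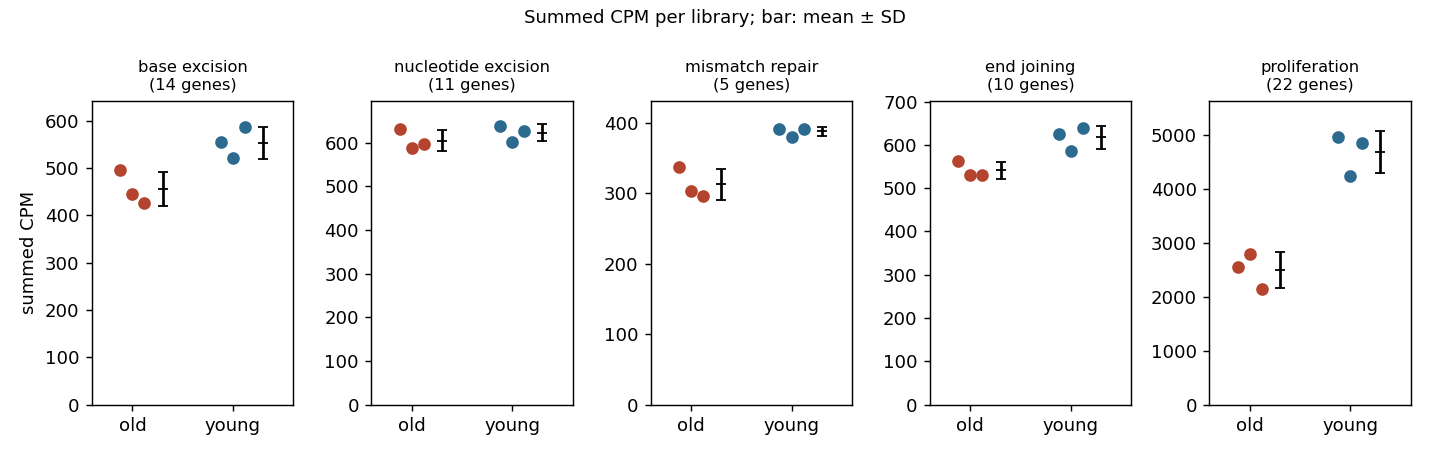
Summed CPM of the members of 4 repair routes and of 22 proliferation genes in each library, with mean and SD. The old mean stands at 0.823 times the young one for base excision, 0.971 for nucleotide excision, 0.807 for mismatch repair, 0.877 for end joining and 0.534 for the proliferation genes.

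End joining held the 1 called member. Of its 10 genes Polq fell and none rose, 6 had a log2 fold change below 0 and 4 above it, and the median was −0.10 (−0.20 without young replicate 3 and −0.05 without old replicate 2). Polq encodes DNA polymerase theta, which anneals short repeats at resected ends and so joins breaks when the classical route or recombination fails. It lies on chromosome 16. The level of Polq was 28.3, 28.5 and 16.7 CPM in old replicates 1 to 3 and 52.3, 40.6 and 52.5 CPM in young replicates 1 to 3. Every old library was well below every young one, and old replicate 3 was the lowest. The log2 fold change was −0.99 ± 0.23 SE, with a 95% interval from −1.50 to −0.48 and an adjusted p of 0.0369 (edgeR). The authors' deposited table lists 0.85 on the log2 scale, young over old, at an adjusted p of 0.0044, and Polq is the 1 member of 41 with an adjusted p under 0.05 there, where 6.17% of genes have one. The call was lost without a filter on low counts (adjusted p = 0.0509) and without any 1 of old replicates 1, 2 and 3 or young replicates 1 and 3, with adjusted p-values of 0.085, 0.071, 0.141, 0.0887 and 0.0996.

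No gene of the classical core passed the test. Xrcc5 and Xrcc6 encode Ku80 and Ku70, the ring that captures a broken end. Xrcc5 had 75.5, 90.6 and 70.9 CPM in old replicates 1 to 3 and 103, 77.9 and 91.7 CPM in young replicates 1 to 3, with overlapping groups. Xrcc6 had 36.8, 33.3 and 40.9 CPM in old replicates 1 to 3 and 42.7, 44.6 and 40.4 CPM in young replicates 1 to 3, also overlapping. Their fold changes were nearly equal in the edgeR fit, 0.868 for Xrcc5 (95% interval 0.687 to 1.10) and 0.871 for Xrcc6 (0.673 to 1.13). They lie further apart in the authors' deposited table, at 0.19 for Xrcc5 and 0.51 for Xrcc6 on the log2 scale, young over old. The adjusted p-values listed there are 0.7 and 0.157. Per kb of exon the ratio of Xrcc5 to Xrcc6 was 3.80 ± 0.882 in old and 3.76 ± 0.618 in young HSCs (exact permutation p = 1, two-sided). Here too the smallest p possible was 0.1. Prkdc, the catalytic subunit of the kinase that Ku recruits, averaged 174 ± 14.3 CPM in old and 181 ± 31.5 CPM in young HSCs, and the interval of its fold change was 0.779 to 1.19.

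Dclre1c, the nuclease Artemis, averaged 46.9 ± 4.11 CPM in old and 51.6 ± 6.90 CPM in young HSCs. Xrcc4, the scaffold of the ligase, averaged 30.4 ± 5.46 and 28.0 ± 3.27 CPM in old and young HSCs. The ligase itself, Lig4, had 5.15, 4.86 and 2.34 CPM in old libraries, against 3.22, 3.80 and 1.47 CPM in young libraries. Poll, a polymerase that fills gaps at ends, had the highest log2 fold change of all 41 members, 0.64, on 227 counts in old and 191 counts in young libraries, and its interval from −0.71 to 1.99 spanned 0. Nhej1, which bridges ends as the factor XLF, averaged 2.18 ± 0.446 CPM in old and 1.88 ± 1.07 CPM in young HSCs. For Lig4, Poll and Nhej1 the groups overlapped and the intervals included both no difference and a 2-fold higher level. The Nhej1 interval, from −1.15 to 1.59 on the log2 scale, included a 2-fold lower level as well.

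Trp53bp1 encodes 53BP1, which shields ends from resection and so favours end joining. It stood at 146, 125 and 146 CPM in old replicates 1 to 3, against 155, 179 and 168 CPM in young replicates 1 to 3. The groups were apart, the fold change was 0.831 with a 95% interval of 0.693 to 0.997, and the adjusted p was 0.294. Its exons overlap Tubgcp4 on the opposite strand over 15% of their length. In all, the groups did not overlap for 6 members, 14.6% of the list, all of them lower in old HSCs, beside 22.4% of all genes tested in either direction and 10.8% on the lower side. These 6 were Polq, Neil3, Parp1, Msh6, Pms1 and Trp53bp1.

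Mgmt, which takes alkyl groups off guanine, had 7.72, 14.0 and 5.68 CPM in old replicates 1 to 3 and 11.9, 7.53 and 5.81 CPM in young replicates 1 to 3. Old replicate 2 and young replicate 1 were high within their groups, the ranges overlapped fully, and the log2 interval from −0.79 to 1.02 was wide (adjusted p = 0.929).

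Members of the same machine differed widely in level. Per kb of exon, averaged over both groups, Ddb1 was the highest at 40.5 CPM, followed by Msh6 at 37.1, Xrcc5 at 33.3, Parp1 at 27.4 and Parp2 at 23.7 CPM. The lowest were Lig4 at 0.668 CPM per kb and Ercc8 at 0.951 CPM per kb. Among ligases, Lig3 stood at 11.5 CPM per kb. Lig3 was 10.8 ± 2.48 times its scaffold Xrcc1 per kb in old and 9.60 ± 2.66 times in young HSCs, and Ercc6 was 10.6 ± 5.14 times Ercc8 in old and 6.66 ± 1.69 times in young HSCs (exact permutation p = 0.6 and 0.3, two-sided). For both ratios the smallest p possible was 0.1, so the test could not decide whether they differed. Old replicate 2 gave the highest value of the Ercc6 ratio, 16.5. Exon lengths are those of all annotated transcripts merged, so levels of genes with long unused exons are understated.

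**Figure D4:**
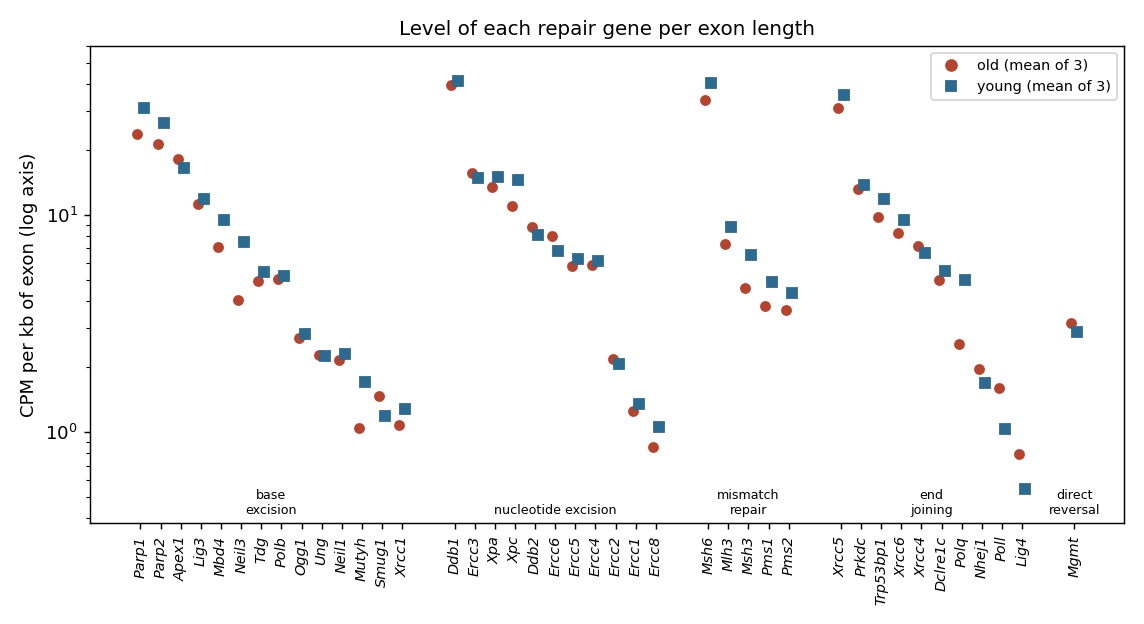
Mean CPM per kb of exon of each repair gene in old (circles) and young (squares) HSCs on a log axis, ordered within each route. Levels run from Ddb1 at 40.5 to Lig4 at 0.668 as means of both groups.

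Further genes of the same routes were read from a list of 52, of which 50 were tested. Of these 4 fell, none rose, and the median of the 50 was −0.06 on the log2 scale. Among all genes tested, 1.54% passed as lower and 2.45% as higher in old HSCs at an adjusted p of 0.05. At an unadjusted p under 0.05, 11 of the 50 were lower and 3 higher in old HSCs, the 3 being Pold4, Gtf2h1 and Polm. Of all genes tested 16.5% had such a p in either direction and 7.63% on the lower side. The 3 of 13 base excision genes that fell were Fen1, Lig1 and Pcna, which act in the long-patch branch and also at the replication fork. Pcna is also 1 of the 22 proliferation genes. Fen1, the flap endonuclease, fell to 15.5 ± 1.57 CPM in old HSCs, against 36.3 ± 2.66 CPM in young HSCs (adjusted p = 0.00507). Lig1, the replicative ligase, averaged 72.1 ± 12.1 CPM in old and 138 ± 17.6 CPM in young HSCs (adjusted p = 0.00587). Pcna, the sliding clamp, averaged 285 ± 16.8 CPM in old and 400 ± 19.4 CPM in young HSCs (adjusted p = 0.0185, lost without old replicate 1, 0.102, or old replicate 3, 0.126). In mismatch repair 1 of 7 fell, Exo1, the nuclease that removes the faulty strand, with 40.2 ± 7.97 CPM in old and 81.4 ± 5.93 CPM in young HSCs (adjusted p = 0.00609). None of 17 nucleotide excision, 11 end joining or 2 direct reversal genes passed with edgeR, where 2, 3 and 0 had an unadjusted p under 0.05. Of those 2 and 3 genes, 1 each was higher in old HSCs, Gtf2h1 and Polm. DESeq2 called 0, 2 and 0 genes of the nucleotide excision, end joining and direct reversal lists. The 2 were Rnf168 and H2afx, both lower in old HSCs. It also called Apex2, a further base excision gene and a relative of Apex1, which averaged 13.8 ± 3.21 CPM in old and 26.2 ± 11.1 CPM in young HSCs (adjusted p = 0.155 with edgeR).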

How the data were processed

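Per the labels' protocols, RNA of sorted HSCs was isolated with the PicoPure kit and made into low-input libraries (Nugen Ovation Trio). Reads were single-end and 50 bases long, per the series' design text. Salmon, DESeq2, FastQC, MultiQC and GRCm38 are named in the submitters' processing notes without versions or roles. The estimated counts deposited by the authors were whole numbers in 6 columns. The deposited comparison table holds the authors' base mean (a normalised signal), log2 fold change and its error, a test score, and p-values with adjusted p-values. Its sign is young over old, read against the counts, and its base mean lies within 2% of that of the counts for 77.7% of genes and 27 of 41 members, so the tables do not match in every gene.

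Symbols, coordinates and merged exon lengths came from GENCODE M21 (GRCm38). Counts were fitted in R 4.3.3 with edgeR 4.0.16 (TMM, default filter on low counts, set at 10 for a library and 15 in all, quasi-likelihood F test of old over young on all 6 libraries), which left 14288 genes and all 41 members. The SE was derived from the F statistic, and p-values were adjusted over all genes at a threshold of 0.05. All tests were two-sided. The fit was tested on simulated counts. Alternatives were RLE size factors, library size alone, no filter, a filter of 1 CPM in 3 libraries, DESeq2 1.42.0, limma-voom (limma 3.58.1), and leaving out each library. Transcripts were searched for copies in other genes with BLAST 2.17.0 (at least 95% identity over 500 bases). Exons of 16 members overlap another gene of the table. The members and lists were chosen with earlier results of these data known. Values in every library were to be given for members past an adjusted p of 0.05, for those with an unadjusted p under 0.05 and for the member with the smallest p of each route. The Ku, XPF-ERCC1 and MSH3/MSH6 partners were set side by side, and other genes of the routes were named where they passed an adjusted p of 0.05. Mbd4, Mutyh, Ercc6, Pms1 and Lig4 were given by library after their values were seen. Lyz2, Prtn3, Rnf168, H2afx, Apex2, Pold4, Gtf2h1 and Polm were likewise named after their values were seen. The labels say biological replicates without naming mice. The p-values set the difference between the ages against the spread between these libraries, which may in part be technical.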

Additional observations from a re-analysis of the deposited data

How the results depend on the processing

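The count of lower members, 1 with edgeR, was 3 with DESeq2 (Polq, Neil3 and Parp1), 0 without a filter, and 0 to 1 when 1 library was left out, while no member was called higher in any of the 12 alternatives. The Polq log2 fold change ran from −1.10 to −0.76 over these alternatives, and 6 of them kept its call. With DESeq2 487 genes were lower and 613 higher among all genes and 7 further repair genes were lower, beside 220, 350 and 4 with edgeR. Leaving out 1 library gave 79 to 167 lower and 166 to 308 higher genes, and 3 to 4 lower further repair genes. Medians then ran from −0.22 to −0.09 for all members (lowest without young replicate 2), −0.23 to −0.12 for base excision, −0.09 to 0.0 for nucleotide excision, −0.36 to −0.27 for mismatch repair and −0.20 to −0.05 for end joining. The sign of 24 members held throughout. The sign of 17 others, all within 0.22 of 0, changed. Ung became −0.05 with library size alone and with limma-voom, Ercc2 −0.01 and −0.02 in the same settings, and Neil1 0.12 with limma-voom. Library size alone moved the median of all genes to −0.07, beside −0.02. Leaving out 1 library, the log2 values ran from −0.18 to 0.22 (Ung), −0.30 to 0.09 (Ogg1), −0.32 to 0.44 (Neil1), −0.03 to 0.37 (Apex1), −0.24 to 0.12 (Polb), −0.21 to 0.09 (Lig3), −0.08 to 0.0 (Ddb1), −0.05 to 0.22 (Ddb2), −0.39 to 0.12 (Xpa), −0.31 to 0.07 (Ercc1), −0.15 to 0.33 (Ercc2), −0.09 to 0.26 (Ercc3), −0.24 to 0.12 (Ercc4), −0.18 to 0.08 (Prkdc), −0.03 to 0.22 (Xrcc4), −0.20 to 0.49 (Nhej1) and −0.32 to 0.44 (Mgmt). The causes were not tested. No paired analysis was possible because the labels give no replicate numbers shared by the groups.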
